A study of Mus musculus and Homo sapiens with 22 samples.

Results

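The genes described here encode proteins that read the 3′ end of an intron: U2af2, U2af1, U2af1l4, Sf1, Puf60 and Rbm39. They were listed by name for their known role, by a rule that uses no measured value although earlier results of these data were known, and are 6 of the 22667 genes listed in the mouse files. All 6 had reads in all 6 mouse RNA files and passed the filter on low values. At the end of an intron lie a branch point, a stretch rich in pyrimidines and a terminal AG. SF1 binds the branch point, U2AF65 (from U2af2) binds the pyrimidine tract, and U2AF35 (from U2af1) contacts the AG. Together they mark the site before the U2 small nuclear ribonucleoprotein (U2 snRNP) takes over the branch point from SF1. U2AF26 (from U2af1l4) is a shorter relative of U2AF35 that can take its place beside U2AF65, and PUF60 and RBM39 are relatives of U2AF65.

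The study examined how nSR100, a neural splicing factor encoded by Srrm4, acts with Ptbp1, a pyrimidine tract binding repressor, and with U2af65. Polyadenylated RNA came from N2A, an established mouse neuroblastoma line. In the siRNA experiment N2A cells were collected 48 hours after transfection with an ON-TARGETplus pool. There were 2 libraries with a non-targeting pool (siCtrl a and b), 1 against U2af65 (siU2af65, letter a) and 1 against Ptbp1 (siPtbp1, letter b). In the hairpin experiment lentivirus-transduced populations kept under 2 ug/mL puromycin carried a hairpin against GFP (shGFP) or nSR100 (shnSR100), with 1 file each, in which 2 runs of different read length had been combined. The labels do not say that siCtrl a and b came from separate cultures, so their spread may be technical. RNA files of human 293T cells and libraries of RNA bound to nSR100, PTBP1 or U2af65 were not analysed here.

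The 6 mouse files held 60220620 to 77138004 reads in genes. Of 12 neuroblastoma markers, 8 reached 1 RPKM (reads scaled to gene length and library size) in every file. The 12 summed to 1680 and 1570 RPKM in siCtrl a and b, 1380 in siU2af65, 1450 in siPtbp1, 1300 in shGFP and 975 in shnSR100. Of those tested, Isl1 was called lower after U2af65 knockdown (-1.70, edgeR adjusted p = 0.0179), and Th differed by -2.10 without passing (edgeR adjusted p = 0.0843). Th was called lower by DESeq2, by limma, and by edgeR with library totals or with no filter. DESeq2, which called 9.30% of all genes, also called Chgb lower. With shGFP added to the controls, a setting in which edgeR called no gene at all, neither Isl1 nor Th was called. The controls of Th themselves lay apart, at 20.24 RPKM in siCtrl a and 6.61 in siCtrl b. Th stood at 3.42 RPKM in siU2af65 and 7.34 in siPtbp1. In the hairpin files Mycn differed by -1.18 and Stmn2 by -0.97 on log2(RPKM + 1). Markers of other cell types (14 genes) summed to 7.46 to 16.4 RPKM, and 9 of them were under 1 RPKM in every file. That sum was 15.7 RPKM in siU2af65 against 7.46 and 8.54 in siCtrl a and b, with Pecam1 at 9.15 RPKM and Tyrobp, called higher there (2.68, edgeR adjusted p = 0.0368), at 3.41 RPKM in siU2af65. Tyrobp lay near the floor, with 120 reads in siU2af65 against 9 and 28 in siCtrl a and b. It was also called by limma but not by DESeq2. The part of these differences in the results below was not tested.

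In the siCtrl libraries U2af1 and U2af2 were the most abundant of the 6 genes per length. Rbm39, Sf1 and Puf60 lay close together below them, and U2af1l4 was the least abundant. In both hairpin files Puf60 lay above U2af2, at 110.45 against 90.33 RPKM in shGFP. The mean of the siCtrl pair was 128.17 ± 6.24 RPKM for U2af1 and 109.39 ± 5.59 RPKM for U2af2 (SD, n = 2). It was 86.98 ± 3.13 RPKM for Rbm39, 86.64 ± 14.1 RPKM for Sf1 and 85.0 ± 11.2 RPKM for Puf60 (SD, n = 2). The order of these 3 changed between siCtrl a and b, and their means differed by less than that spread. U2af1l4 stood at 20.93 ± 1.80 RPKM (SD, n = 2), or 0.159 and 0.167 of the U2af1 level in siCtrl a and b. U2af1 had the highest RPKM of the 6 in every file. U2af1l4 had the lowest in every file except siU2af65, where U2af2 lay at its level. Among all genes tested, the percentile of mean RPKM was 92.6 to 95.6 for 5 of the 6 and 63.3 for U2af1l4. That mean was taken over the 4 siRNA libraries and not the controls alone, so for U2af2 it includes the low siU2af65 value.

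**Figure D1:**
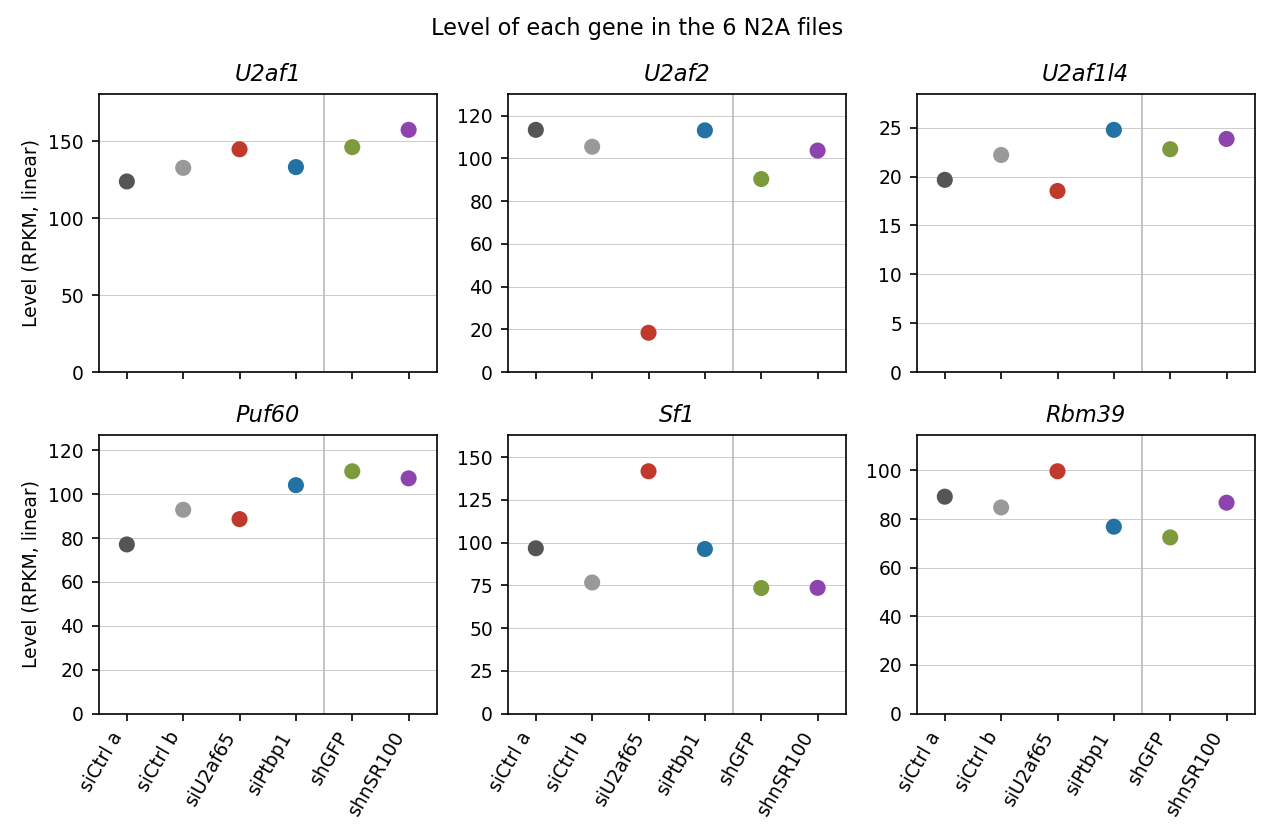
Deposited RPKM (linear axis from 0, a separate scale for each gene) of the 6 genes in the 6 N2A files; each point is 1 file, and the vertical line parts the siRNA files from the hairpin files. U2af2 stands at 18.43 RPKM in siU2af65 and at 90.33 or more in the other 5, and Sf1 at 141.68 RPKM in siU2af65 and at 96.64 or less in the other 5.

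U2af2 encodes the large U2AF subunit and was the target of the U2af65 siRNA pool, so its level checks the label. It had 113.34 RPKM in siCtrl a, 105.44 in siCtrl b, 18.43 in siU2af65, 113.11 in siPtbp1, 90.33 in shGFP and 103.65 in shnSR100. Only the siU2af65 library was low, on 2699 reads against 15511 and 17406 in the controls. U2af2 fell by 2.67 on the log2 scale (SE 0.26, 95% interval -3.26 to -2.09; edgeR quasi-likelihood test, adjusted p = 0.00468), to 0.157 of the control level. Counted over the members, 1 of 6 was called in this comparison, against 5.24% of the 11237 genes tested (205 higher and 384 lower); since the siRNA was aimed at that 1 gene, the count says nothing about the others. In bulk RNA, fewer cells that express a gene and less RNA per cell cannot be told apart. With shGFP added to the controls the difference in U2af2 was -2.55 with an adjusted p of 0.437 (edgeR), a setting in which edgeR called no gene at all. The U2af2 adjusted p ranged from 1.8e-29 (limma) to 0.437 over the alternatives. After Ptbp1 knockdown the U2af2 difference was -0.01 (SE 0.23, 95% interval -0.51 to 0.50). The 2 knockdowns differed in U2af2 by -2.67 (siU2af65 minus siPtbp1, SE 0.28, edgeR adjusted p = 0.00666), the only member among 6 to pass that test, which called 3.62% of all genes.

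U2af1 encodes U2AF35, the usual partner of U2AF65. Its level was 123.76 RPKM in siCtrl a, 132.58 in siCtrl b, 144.63 in siU2af65, 133.08 in siPtbp1, 146.04 in shGFP and 157.25 in shnSR100. These levels spanned 1.27-fold, the narrowest range of the 6 genes. With its partner at 0.157 of control, the U2af1 difference in siU2af65 was 0.07 on the log2 scale (SE 0.21, 95% interval -0.39 to 0.53; edgeR adjusted p = 0.867). A change within that interval was not detectable with this spread, and larger ones could also go uncalled. In the same comparison Sf3a2, of the U2 snRNP list below, differed by 0.72 (SE 0.23) and was not called by edgeR. After Ptbp1 knockdown the U2af1 difference was 0.00 (SE 0.21, 95% interval -0.46 to 0.46).

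The balance of the 2 subunit transcripts therefore differed in siU2af65. The ratio of U2af1 to U2af2 RPKM was 1.09 in siCtrl a, 1.26 in siCtrl b, 1.18 in siPtbp1, 1.62 in shGFP and 1.52 in shnSR100. It was 7.85 in siU2af65. The hairpin files both lay above all 3 siRNA files other than siU2af65. The ratio describes transcripts per length and not protein.

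**Figure D2:**
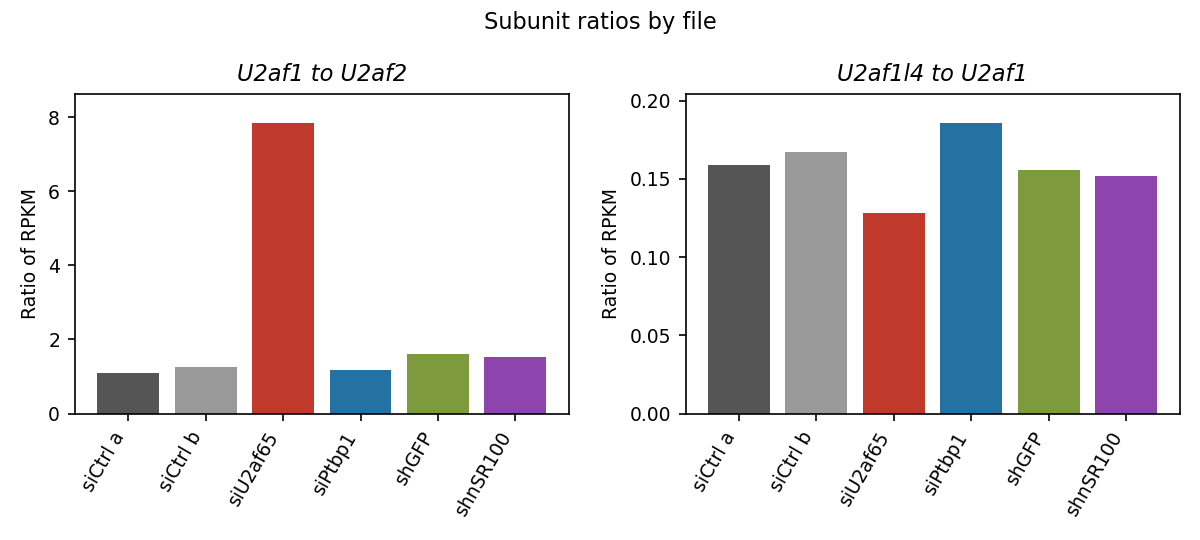
Ratios of RPKM (linear axes from 0) in the 6 N2A files, 1 bar a file with no error since each is a single file: U2af1 to U2af2 on the left and U2af1l4 to U2af1 on the right. The left ratio is 7.85 in siU2af65 and 1.09 to 1.62 elsewhere; the right one is 0.128 in siU2af65 and 0.152 to 0.186 elsewhere.

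U2af1l4 encodes U2AF26. Its level was 19.66 RPKM in siCtrl a, 22.20 in siCtrl b, 18.52 in siU2af65, 24.77 in siPtbp1, 22.79 in shGFP and 23.84 in shnSR100. The siU2af65 library was the lowest and siPtbp1 the highest, with both outside the range of the siCtrl pair. Neither difference passed the test: -0.28 after U2af65 knockdown (SE 0.32, 95% interval -0.99 to 0.43; edgeR adjusted p = 0.65) and 0.19 after Ptbp1 knockdown (SE 0.31, 95% interval -0.50 to 0.89). Between the knockdowns it was -0.47 (SE 0.36, 95% interval -1.28 to 0.34; edgeR adjusted p = 0.511). With 1050 to 1465 reads a file, this was the least sampled member. In RefSeq (GRCm38.p6) U2af1l4 overlaps Psenen, a subunit of gamma-secretase, which stood at 89.25 to 106.66 RPKM. No source used here says how shared or antisense reads were counted, so the U2af1l4 level is uncertain to that extent. The RefSeq models of Puf60 and Sf1 also overlap 1 predicted gene each (Gm48952 and Gm14966), and those of U2af1, U2af2 and Rbm39 overlap none.

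Sf1 encodes the branch point binding protein that joins U2AF65 on the unspliced intron. It had 96.64 RPKM in siCtrl a, 76.63 in siCtrl b, 141.68 in siU2af65, 96.21 in siPtbp1, 73.39 in shGFP and 73.51 in shnSR100. The siU2af65 library was above each of the other 5, and the siCtrl pair themselves lay apart. The Sf1 difference after U2af65 knockdown was 0.60 on the log2 scale (SE 0.28, 95% interval -0.03 to 1.23; edgeR adjusted p = 0.234), which did not pass the test. Scaled to library totals in place of TMM it was 0.71 with an adjusted p of 0.0346 (edgeR), where 10.3% of genes were called. With limma on log2(RPKM + 1) it was 0.71 with an adjusted p of 0.0083, where 11.4% of genes were called. Both of those settings put the median of all genes at 0.10, and DESeq2, which called 9.30% of genes, gave an adjusted p of 0.223. Against siCtrl a alone, which shares its letter, the difference was 0.39, and against siCtrl b alone 0.85. The gap between the siCtrl libraries was larger for Sf1 (-0.46 on the log2 scale, b minus a) than for 78.2% of genes tested. After Ptbp1 knockdown the Sf1 difference was 0.09 (SE 0.29, 95% interval -0.55 to 0.73), and the test between the knockdowns gave 0.51 (SE 0.33, edgeR adjusted p = 0.426).

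Puf60 encodes a tract-binding protein that acts beside U2AF65 at weak sites. Its level was 77.09 RPKM in siCtrl a, 92.90 in siCtrl b, 88.63 in siU2af65, 104.12 in siPtbp1, 110.45 in shGFP and 107.21 in shnSR100. The siU2af65 library fell between the siCtrl pair, while siPtbp1 and both hairpin files lay above them. The difference was -0.04 after U2af65 knockdown (SE 0.22, 95% interval -0.52 to 0.45; edgeR adjusted p = 0.939) and 0.25 after Ptbp1 knockdown (SE 0.21, 95% interval -0.24 to 0.73). The first of these took the opposite sign under library totals and limma.

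Rbm39 encodes a U2AF65 relative that also serves as a transcriptional coactivator. It had 89.19 RPKM in siCtrl a, 84.76 in siCtrl b, 99.64 in siU2af65, 76.84 in siPtbp1, 72.44 in shGFP and 86.72 in shnSR100. The siU2af65 library was the highest and shGFP the lowest. The difference was 0.09 after U2af65 knockdown (SE 0.23, 95% interval -0.43 to 0.61; edgeR adjusted p = 0.854) and -0.23 after Ptbp1 knockdown (SE 0.24, 95% interval -0.76 to 0.29). Between the knockdowns it was 0.33 (SE 0.27, 95% interval -0.28 to 0.93).

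**Figure D3:**
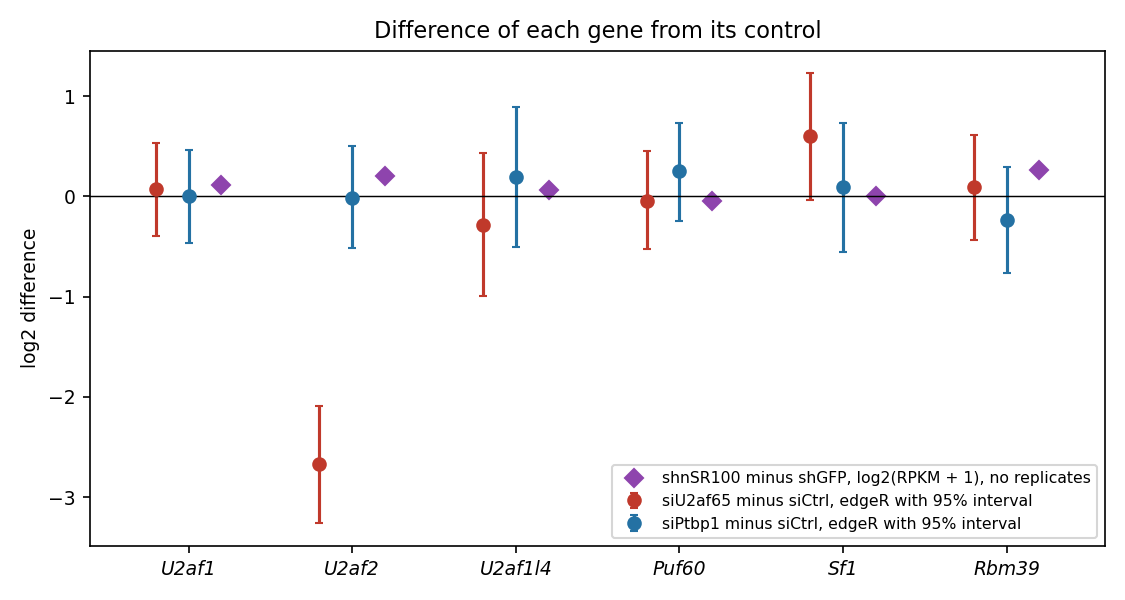
Log2 difference of each gene from its control. Circles are edgeR estimates for siU2af65 and siPtbp1 against the siCtrl pair with approximate 95% intervals, and diamonds are shnSR100 minus shGFP on log2(RPKM + 1), with no replicates and no interval. Only the interval of U2af2 in siU2af65 (-3.26 to -2.09) leaves out 0.

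In the Ptbp1 knockdown none of the 6 genes was called by edgeR, DESeq2 or limma, and none had an unadjusted p under 0.05 in any of them. The background was low too: edgeR called 0.0267% of genes, or 3 in all, DESeq2 0.178% and limma 0.881%, and 4.28% had an unadjusted p under 0.05 with edgeR. Ptbp1 itself had 8.53 RPKM in siPtbp1 against 157.83 and 138.69 in siCtrl a and b. The member differences ran from -0.23 (Rbm39) to 0.25 (Puf60), with every edgeR adjusted p at 0.999. The median of the 6 was 0.05 against 0.01 for all genes tested.

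In the hairpin files Srrm4, the nSR100 gene, stood at 2.50 RPKM in shnSR100 and 11.63 in shGFP. That is 21.5% of the shGFP level (20.2 to 22.8%, exact binomial 95% interval for counting error only). With 1 file a group there was no replicate check and no test. None of the 6 members differed by 2-fold, the size at which 0.918% of 11877 genes did. Rbm39 stood at 120% of shGFP (117 to 123%) and U2af2 at 115% (112 to 118%). U2af1 was at 108% (104 to 111%), U2af1l4 at 105% (96.8 to 113%), Sf1 at 100% (98.3 to 102%) and Puf60 at 97.1% (94.8 to 99.4%). On log2(RPKM + 1) the members ran from -0.04 to 0.26 with a median of 0.08, against 0.03 for all genes.

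Summed over the 6 genes, the level was 519.7 RPKM in siCtrl a, 514.5 in siCtrl b, 511.5 in siU2af65, 548.1 in siPtbp1, 515.4 in shGFP and 552.2 in shnSR100. On deposited RPKM the sum in siU2af65 was thus close to the siCtrl pair, while its make-up was not. These RPKM are scaled to library totals and not by TMM, whose factors ran from 0.933 to 1.05 over the siRNA libraries. The closeness of the sums depends on that scaling and was not tested. U2af2 gave 3.6% of the sum in siU2af65, against 21.8% and 20.5% in siCtrl a and b. It gave 17.5 to 20.6% in the other files. Sf1 stood at 7.69 times the U2af2 RPKM in siU2af65 and at 0.71 to 0.85 times in the other 5 files.

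Other genes of the pathway were described from 5 lists. The first holds relatives and partners of U2AF: 10 of 12 were tested, and by edgeR none rose and 1 fell after U2af65 knockdown, beside 5.24% of all genes called. The list median was 0.26 against 0.00 for all genes. The 1 that fell was Ddx39 (Ddx39a), an RNA helicase closely related to the U2AF65-binding helicase Ddx39b. It had 61.12 RPKM in siCtrl a, 67.10 in siCtrl b, 24.16 in siU2af65, 79.52 in siPtbp1, 54.81 in shGFP and 66.84 in shnSR100. The siU2af65 library was below the other 5, a difference of -1.51 (SE 0.22, edgeR adjusted p = 0.0125). With shGFP as a further control the difference was -1.40 and the adjusted p 0.437, a setting in which edgeR called no gene at all. Ddx39b itself, named here after its values were seen, differed by 0.59 (edgeR adjusted p = 0.187). Prpf19, whose complex is recruited through U2AF65 and which was also named after its values were seen, differed by 0.66 (edgeR adjusted p = 0.113). Ddx39b and Prpf19 were called higher with library totals and with limma, which makes 3 of 10 called where these settings called 10.3% and 11.4% of all genes. None of the 10 was called after Ptbp1 knockdown by edgeR, DESeq2 or limma, or at an unadjusted p under 0.05, and none differed by 2-fold in the hairpin files.

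Of 17 genes of the U2 snRNP and its helpers, which U2AF brings to the branch point, by edgeR none rose and 1 fell after U2af65 knockdown, a share near the 5.24% of all genes, with a median of -0.19. Sf3a2, an SF3a subunit named after its values were seen, differed by 0.72 (SE 0.23, edgeR adjusted p = 0.105) and was called higher by limma and with library totals. It had 30.44 RPKM in siCtrl a, 25.74 in siCtrl b, 49.73 in siU2af65, 27.35 in siPtbp1, 50.18 in shGFP and 51.75 in shnSR100. The siU2af65 library was thus the highest siRNA library but lay near both hairpin files. With shGFP added to the controls Sf3a2 was not called, a setting in which edgeR called no gene at all. Snrpa1, a protein of the U2 particle itself, had 87.38 RPKM in siCtrl a, 85.10 in siCtrl b, 49.87 in siU2af65, 91.31 in siPtbp1, 54.24 in shGFP and 62.44 in shnSR100. The siU2af65 library was the lowest, though near shGFP. The difference was -0.89 (SE 0.22, edgeR adjusted p = 0.0479), just inside the threshold. With a filter at a mean of 5 RPKM it was -0.88 with an adjusted p of 0.07, and with shGFP added -0.67 with an adjusted p of 0.642. Sf3b4 differed by 0.82 (SE 0.50, edgeR adjusted p = 0.349) on 3.15 to 7.15 RPKM in the siRNA libraries. After Ptbp1 knockdown Sf3b5, a small SF3b subunit, had 34.44 RPKM against 76.47 and 87.30 in siCtrl a and b. That difference of -1.30 (SE 0.24, edgeR adjusted p = 0.336) did not pass the main test, but it passed with DESeq2 (adjusted p = 0.00619) and limma (adjusted p = 2.67e-06). EdgeR also called Sf3b5 with library totals and with no filter. With edgeR at a mean of 5 RPKM the adjusted p was 0.539, and with shGFP added 1.0.

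Other readers of pyrimidine tracts and branch points number 18 genes. After U2af65 knockdown none was called by edgeR or DESeq2, 1 had an unadjusted p under 0.05 with edgeR (23.5% of all genes did) and 2 were called by limma, a share near its 11.4% of all genes. Their median was -0.20, with 15 differences below 0 and 3 above. Fubp3 differed by 0.58 (SE 0.21, edgeR adjusted p = 0.127; called by limma and with library totals), and Tial1, a U-rich sequence binder, by -0.58 (SE 0.27, edgeR adjusted p = 0.234). After Ptbp1 knockdown the Ptbp1 transcript fell by 4.18 in log2 units (SE 0.32, edgeR adjusted p = 0.00242; with shGFP as a further control -4.05 and 1.0). Its neural relative Ptbp2 differed by 0.72 (SE 0.24, edgeR adjusted p = 0.961; called higher by limma), at 79.06 RPKM against 51.01 and 40.82 in siCtrl a and b.

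Among 10 factors of the second catalytic step and AG choice, edgeR and DESeq2 called none after U2af65 knockdown, edgeR gave 1 at an unadjusted p under 0.05, and limma called 1, Bud31; both shares were at or under those of all genes. The median was 0.08; Dhx8 differed by 0.49 (edgeR adjusted p = 0.201) and Bud31 by 0.47 (edgeR adjusted p = 0.244). After Ptbp1 knockdown all 10 differences were at or below 0, with a median of -0.09 and none called by edgeR, DESeq2 or limma or at an unadjusted p under 0.05. Of 9 tested enzymes that modify U2AF65, SF1 or SR proteins, none was called after either knockdown by edgeR, DESeq2 or limma. At an unadjusted p under 0.05 there was none with edgeR and 1, Jmjd6, with DESeq2 and limma after Ptbp1 knockdown. Jmjd6, which hydroxylates U2AF65, had 152.6 RPKM in siCtrl a and 76.89 in siCtrl b, so its controls themselves lay apart. It had 125.18 RPKM in siU2af65 and 71.5 in siPtbp1, each nearer the control that shares its letter. Uhmk1, a kinase of SF1, stood at 15.51 RPKM in shnSR100 and 23.43 in shGFP, a log2 difference of -0.57.

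**Figure D4:**
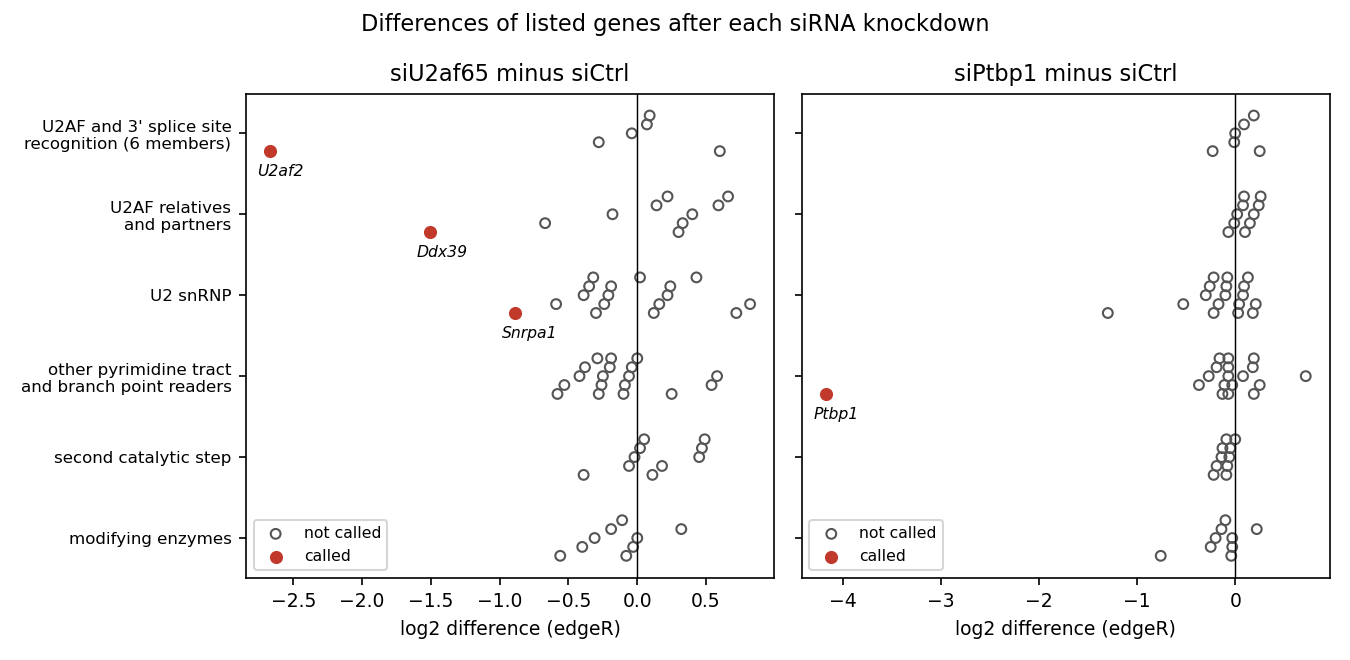
Log2 differences (edgeR) of the 6 genes and of the tested genes of the 5 lists after U2af65 knockdown (left) and Ptbp1 knockdown (right); each circle is 1 gene, filled where the adjusted p was under 0.05, with vertical offsets for legibility only. Filled circles are U2af2, Ddx39 and Snrpa1 on the left and Ptbp1 on the right.

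The genes whose levels ran most like each member over the 6 files were ranked by Pearson's r of log2(RPKM + 1) among the 9048 genes whose mean was 5 RPKM or more. The files share controls and differ in experiment, so these r are a description. For U2af1 they included Ctsz (0.995) and Rrp15 (0.994), both lowest in siCtrl a and highest in shnSR100, as U2af1 was. For U2af2 they were Ubap1 (0.998), Ppib (0.998) and Creb1 (0.997). That likeness leaned on siU2af65: over the other 5 files r was 0.919, 0.855 and 0.822. Ppib, an endoplasmic reticulum prolyl isomerase, had 60.12 RPKM in siU2af65 and 207.81 to 255.77 in the other files. For U2af1l4 they were Cd320 (0.992), Rpap3 (0.990) and B3gnt2 (0.989), and for Puf60 Ccdc32 (0.991), 2810025M15Rik (0.990) and Zfp593 (0.987). For Sf1 they were Clk4 (0.990), Eif4a1 (0.982) and Dnaaf5 (0.982). Clk4, a kinase of SR proteins, had 48.63 RPKM in siU2af65 and 31.46 to 38.69 elsewhere, and its r with Sf1 over the other 5 files was 0.959. For Rbm39 they were Tmem106b (0.984), Odr4 (0.965) and Zfp106 (0.960). Rbm39 had 5 genes with r above 0.95, the fewest of the 6, and U2af1 had 275.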

How the data were processed

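The mouse files carry no header row, and their columns were taken by position as RPKM and reads per gene. The authors deposited the read counts as whole numbers and the RPKM beside them, with no RPKM for 1114 of 22667 genes. The submitters' processing notes name Bowtie, bedtools 2.17.0, hg19 and mm9 with no role; how reads were assigned to genes and whether strand was used are not given in the sources used here. A gene's reads and RPKM implied the same length within 1% in every file for 100% of 7849 genes checked. Counts of the 4 siRNA libraries were fitted with edgeR 4.0.16 (TMM, quasi-likelihood; R 4.3.3) over the 11237 genes whose mean was 1 RPKM or more, with Benjamini-Hochberg adjustment and a threshold of 0.05. The spread came from the siCtrl pair (1 residual degree of freedom, 8.65 prior), and each knockdown library was assumed to vary like it. Standard errors were taken as the log2 difference over the root of F, and intervals from 9.65 degrees of freedom. Deposited RPKM of the hairpin files were compared on log2(RPKM + 1) among genes with at least 1 RPKM in either. DESeq2 1.42.0 and limma 3.58.1 (on log2(RPKM + 1)) were alternatives, with library totals, other filters, shGFP as a further control and each control left out. Named genes are the members, the targets, each list's called genes (otherwise its 2 largest differences) and the 3 most alike per member; a few that this rule names are not reported here. The members and lists were chosen with earlier results of these data known.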

Additional observations from a re-analysis of the deposited data

How the results depend on the processing

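The 6 genes were recomputed under the alternatives that apply to each comparison, which gave 144 log2 differences. Of these, 9 tested values changed sign, 2 gained a call, 1 lost it and 4 (hairpin files, TMM scaling) moved beyond their counting interval. The other 128 were counted as unchanged. Where tested, these kept their sign and their side of the threshold. Untested values with 1 control left out counted as unchanged if they moved no further than the SD of the siCtrl pair. With only 2 controls, leaving 1 out shifts a value by less than about that SD, so this rule could hardly be failed. All of these untested values were counted as unchanged and are part of the 128, so they say nothing about stability. Some of the untested values changed sign. After Ptbp1 knockdown Sf1 was 0.09, and -0.12 without siCtrl b, and U2af2 was -0.01, and 0.11 without siCtrl a. Members called after U2af65 knockdown were 2 with library totals and with limma (U2af2 and Sf1) and 0 with shGFP added to the controls. Genes called in all after U2af65 knockdown, 589 in the fit reported, were 1158 with library totals, 1045 with DESeq2, 1285 with limma, 1649 with no filter, 257 with a mean of at least 5 RPKM and 0 with shGFP added (edgeR; 1115 at an unadjusted p under 0.05). After Ptbp1 knockdown the 3 became 86, 20, 99, 99, 1 and 0 (edgeR; 150 at an unadjusted p under 0.05) in the same order. Between the knockdowns the 407 became 980, 789, 1066, 1279 and 114. Library totals moved the share of calls that were higher from 34.8% to 50.1% after U2af65 knockdown, from 0% to 16.3% after Ptbp1 knockdown and from 30.0% to 44.4% between them. The Puf60 difference after U2af65 knockdown was 0.06 with library totals and 0.07 with limma. After Ptbp1 knockdown U2af1 was -0.01 with DESeq2, no filter and shGFP added, and -0.02 at 5 RPKM, and U2af2 was 0.05 with library totals and limma and 0.12 with shGFP added. A pseudocount of 0.1 gave 247 genes at 2-fold in the hairpin files against 109. Taken from reads, not per length, the U2af1 to U2af2 ratio was 0.44 in siCtrl a, 0.50 in siCtrl b, 3.15 in siU2af65, 0.47 in siPtbp1, 0.65 in shGFP and 0.61 in shnSR100, since the U2af2 model is longer. Apart from these constructions, the cause was not tested. No paired analysis was possible because each knockdown shares its letter with only 1 control library, and a block on the letters leaves no residual degrees of freedom. Values with 1 control left out carry no test, and depth limits U2af1l4 most.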
